A study of Mus musculus with 2 samples.

Results

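The insulin-like growth factor (IGF) axis and the growth hormone receptor were measured in the prefrontal cortex (PFC) of male C57Bl/6 N sea mice. The genes were taken by name and numbered 10: the ligands Igf1 and Igf2, the acid-labile subunit Igfals, the binding proteins Igfbp1, Igfbp2, Igfbp3, Igfbp4 and Igfbp5, and the receptors Igf1r and Ghr. They are 10 of 37069 names on the arrays, and 15 probes in 19 spots carried a RefSeq accession of 1 of them. The C group had ordinary care in group housing. The CMS group was housed singly and exposed to chronic mild stress for 4 weeks, starting at 9 to 10 weeks of age, so single housing and the stressors cannot be told apart. Brains were taken the day after the last stressor. Total RNA of each group was pooled, from 7 mice by the series' design text, while the methods assign 10 mice per group to arrays and quantitative PCR together. Each pool was hybridized to 1 one-color Agilent mouse array. Since a group was a single array, the variation among mice was not measured, and differences between the pools are given by their size without a test. The pools are called C and CMS where signals are given. In a pool of tissue RNA, fewer cells of a type and less RNA per cell cannot be told apart.

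IGF-I is a circulating hormone, made mainly by hepatocytes under the control of growth hormone, and is also made locally in the brain. In plasma most of it is held in a complex of IGF-I, IGFBP-3 or IGFBP-5 and the acid-labile subunit, while other binding proteins hold smaller amounts and set how much reaches the receptor IGF1R, a tyrosine kinase that signals through IRS proteins, PI3 kinase and AKT. IGFBP-1 is a liver product whose gene is repressed by insulin. In the brain, Igf2 and Igfbp2 are made largely by the choroid plexus and the leptomeninges.

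Igfbp1 was 11.0-fold higher in the CMS pool, and of the 4 Igf1 probes 2 were 3.48- and 3.49-fold higher and 2 were 1.26- and 1.35-fold higher. The other genes of the axis that had a ratio lay within 2-fold. Values are scaled signal intensities, with the mean of each array set to 2500, and differences are log2 ratios of the CMS pool over the C pool, so that 1 is a 2-fold rise. Where a gene had several probes, its value is that of the probe brightest on average. A gene was counted as changed above 2-fold or below 0.5-fold, and by this rule 1 of the 10 genes was higher (Igfbp1), none was lower, 8 lay within 2-fold and 1 (Igfals) had no ratio. Of all 27117 names with a ratio, 1.96% were higher and 0.564% lower. Counted by probe, 3 of the 14 IGF axis probes with a ratio were more than 2-fold higher (1 of Igfbp1 and 2 of Igf1) and none was below 0.5-fold, against 1.82% and 0.581% of all 37374 probes with a ratio. The split of all names depended on the scaling, with 532 higher and 153 lower as given here, and 428 higher and 250 lower when the arrays were not scaled. The median log2 ratio was 0.13 over the 9 IGF axis genes with a ratio and -0.03 over all names. Errors given with ± come from the error model of the scanner software for a spot and leave out the mice.

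**Figure D1:**
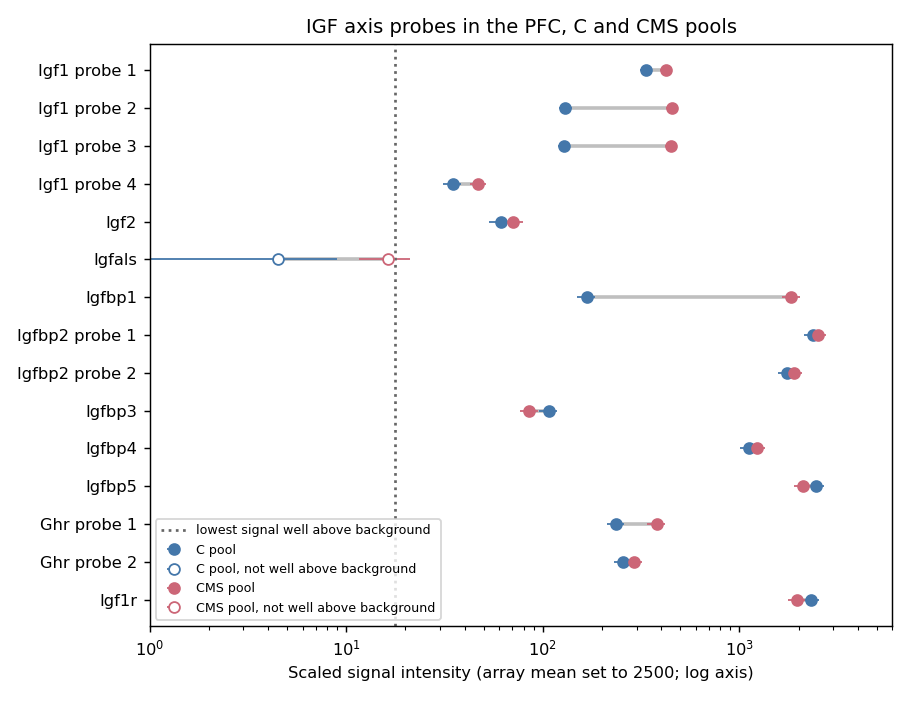
Scaled signal intensity of the 15 IGF axis probes on a log axis, with the C pool in blue, the CMS pool in red, horizontal bars for the error of the scanner software and open circles where a probe was not well above background. Igfbp1 and Igf1 probes 2 and 3 have widely separated points, and the error bar of Igfals in the C pool reaches below the axis.

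Igfbp1 (NM_008341) gave 167 ± 17.3 in C and 1838 ± 184 in CMS. Its probe was well above background in both pools. The log2 ratio was 3.46 ± 0.21, and it ranked 25 from the top among the 27117 names with a ratio. Igfbp1 has 1 probe in 1 spot, so no second probe could be compared.

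Igfbp3 is the next protein-coding gene to Igfbp1 on chromosome 11 in the RefSeq gene order, and its product is the main IGF carrier of plasma. Its signal was 107 ± 11.5 in C and 85.5 ± 9.43 in CMS, a log2 ratio of -0.32 ± 0.22. The neighbour on the other side of Igfbp1, the neuronal adenylate cyclase gene Adcy1, had signals of 8918 in C and 8629 in CMS and a log2 ratio of -0.05. Thus the large ratio at this locus lay on Igfbp1 and on neither neighbour.

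The 250 bases before the starts of Igfbp1, Igfbp3 and Igf1 are shown because they belong to the gene with the largest ratio, its neighbour and the ligand whose probes differ. They are from RefSeq (GRCm38.p6), run 5′ to 3′ on the strand of the gene, and capitals mark matches to the motifs named after them.
Igfbp1, chr11:7197537-7197786, plus strand: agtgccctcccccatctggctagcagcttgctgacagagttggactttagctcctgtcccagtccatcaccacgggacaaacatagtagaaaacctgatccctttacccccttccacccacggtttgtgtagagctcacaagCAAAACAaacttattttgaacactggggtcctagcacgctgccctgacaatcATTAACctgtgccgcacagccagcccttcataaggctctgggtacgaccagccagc
Igfbp3, chr11:7213924-7214173, minus strand: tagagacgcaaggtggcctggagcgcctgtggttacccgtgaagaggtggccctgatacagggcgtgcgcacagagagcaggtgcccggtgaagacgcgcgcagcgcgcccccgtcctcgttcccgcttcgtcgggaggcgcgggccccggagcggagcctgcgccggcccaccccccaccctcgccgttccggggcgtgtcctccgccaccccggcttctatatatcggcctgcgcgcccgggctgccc
Igf1, chr10:87860861-87861110, plus strand: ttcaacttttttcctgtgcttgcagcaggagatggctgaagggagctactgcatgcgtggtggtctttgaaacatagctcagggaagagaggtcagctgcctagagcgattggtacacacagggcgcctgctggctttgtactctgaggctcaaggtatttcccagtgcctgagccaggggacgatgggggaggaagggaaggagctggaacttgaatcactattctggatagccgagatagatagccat

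The motifs searched on both strands were CAAAACA, the core of insulin response sequences bound by FOXO factors, GTTAAT, part of the site of HNF1, CAAAGTCCA, a site of HNF4, TTCNNNGAA, the site of STAT5 downstream of growth hormone, and TATAAA. Igfbp1 held CAAAACA at bases 108 to 102 before its start and GTTAAT, on the other strand, at bases 56 to 51. No matches overlapped. Of 32851 promoter windows of the same length, 5.56% held CAAAACA and 6.43% held GTTAAT. The windows of Igfbp3 and Igf1 held none of the motifs. All 10 genes were matched to the table, with 17 windows in all. The STAT5 motif was found in 2 of the Igfals windows and in no window of the other genes, against 7.02% of all windows. The HNF4 motif was in none of the 17 windows and in 0.384% of all windows. TATAAA was in 1 window each of Ghr and Igfbp4, against 12.4% of all windows. These matches describe the letters of the windows and do not show binding.

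Igf1, the IGF-I ligand, had 4 probes, all annotated to NM_010512, with 2 spots each on both arrays. Probe 1, the brightest, had signals of 335 and 335 in C and 424 and 421 in CMS, and a log2 ratio of 0.33 ± 0.15. Probe 2 had 118 and 142 in C and 418 and 488 in CMS, with a log2 ratio of 1.80 ± 0.15. Probe 3 had 126 and 131 in C and 432 and 465 in CMS, with 1.81 ± 0.15. In both of these probes every CMS spot was above every C spot by a wide margin.

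The fourth Igf1 probe was dim, with signals of 39.5 and 30.3 in C and 47.5 and 46.4 in CMS, and had a log2 ratio of 0.43 ± 0.20. The 8 spots thus fell into sets of 4: the log2 ratios of single spots ran from 1.78 to 1.83 for probes 2 and 3, and from 0.27 to 0.62 for probes 1 and 4. The spots were spread over rows 42 to 379 of the array. Spots of 1 probe differed with an SD of 0.12 in the log2 ratio over 78 probes with signals from 100 to 500, and 0.26 over 73 probes from 20 to 100. The gap between both sets of probes was larger than this. All 4 probes were well above background in both pools, and none of the spots was marked as an outlier or saturated. The probe sequences were not used here, so which part of the transcript or which splice form each probe reads was not tested. Such splits were not particular to Igf1. Of 54 symbols with 2 or more probes well above background on both arrays and at least 1 of them more than 2-fold higher, 32 had another probe that was not.

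**Figure D2:**
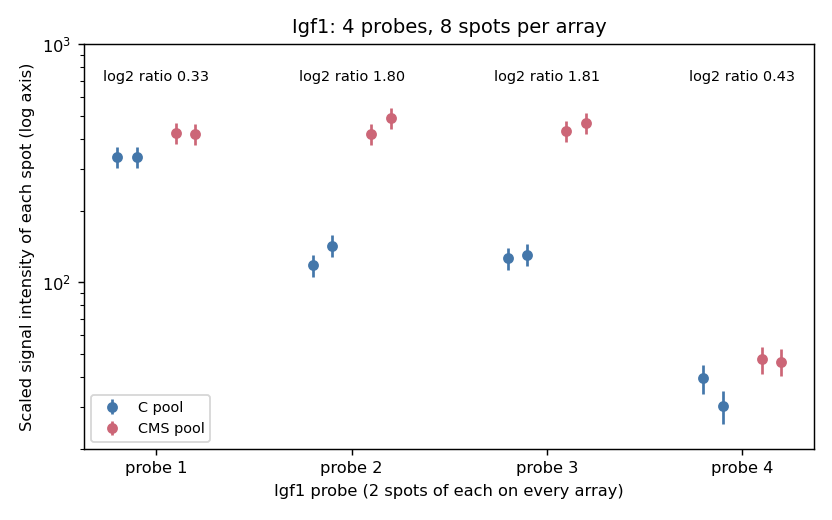
Scaled signal intensity of each Igf1 spot on a log axis, C pool in blue and CMS pool in red, with bars for the error of the scanner software and the log2 ratio of each probe at the top. Probes 2 and 3 separate the pools with log2 ratios of 1.80 and 1.81, and probes 1 and 4 differ by 0.33 and 0.43.

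Igf2, the fetal growth factor that the adult brain keeps mainly in its coverings, had signals of 61.0 ± 7.59 in C and 70.8 ± 8.41 in CMS. The log2 ratio of 0.21 ± 0.25 was within the error of the spots. H19, the noncoding RNA that shares an imprinted locus with Igf2, had 74.1 in C and 86.2 in CMS with 1 of its 5 probes, a log2 ratio of 0.22 ± 0.23, also within the error. The other 4 H19 probes were dim in both pools and gave no ratio.

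Igfals encodes the acid-labile subunit, a liver protein that stabilizes the plasma IGF complex. Its signal was 4.50 ± 4.51 in C and 16.3 ± 4.70 in CMS, and the probe was not well above background on either array. The lowest signals that were well above background were 17.8 in C and 17.6 in CMS, so no ratio is given for Igfals. A difference below these signals was not detectable.

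Igfbp2, the main IGF binding protein of cerebrospinal fluid, had signals of 2367 ± 237 in C and 2519 ± 252 in CMS with its first probe, and 1739 ± 174 and 1890 ± 189 with its second. The log2 ratios were 0.09 ± 0.20 and 0.12 ± 0.20. Both Igfbp2 probes were thus alike within their error, and neither differed between the pools beyond it.

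Igfbp4, which binds IGFs and releases them when cut by the protease PAPP-A, had 1117 ± 112 in C and 1225 ± 123 in CMS, a log2 ratio of 0.13 ± 0.20. Igfbp5, which neighbours Igfbp2 on chromosome 1, had 2444 ± 244 in C and 2109 ± 211 in CMS, a log2 ratio of -0.21 ± 0.20. Of the binding proteins, Igfbp1 alone passed 2-fold, and those from Igfbp2 to Igfbp5 lay between -0.32 and 0.13.

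Igf1r, the receptor through which both IGFs signal, had signals of 2317 ± 232 in C and 1968 ± 197 in CMS. Its log2 ratio was -0.24 ± 0.20, slightly larger than the error of the spot.

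Ghr, the growth hormone receptor, had 2 probes annotated to different RefSeq accessions, and, as for Igf1, which transcripts each reads was not tested. The probe annotated to NM_001048178 had signals of 235 ± 23.9 in C and 379 ± 38.1 in CMS, a log2 ratio of 0.69 ± 0.21. The probe annotated to NM_010284 had 255 ± 25.8 in C and 291 ± 29.4 in CMS, a log2 ratio of 0.19 ± 0.21. The first ratio exceeded its error more than 3 times and the second did not exceed it, and neither passed 2-fold. Ghr ranked 816 and Igf1 1984 from the top among the 27117 names by the probes used. For Ghr this was the first probe, which was the brighter on average only through its signal in CMS. In C the second was brighter, so the rank of Ghr depends on the choice of probe.

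**Figure D3:**
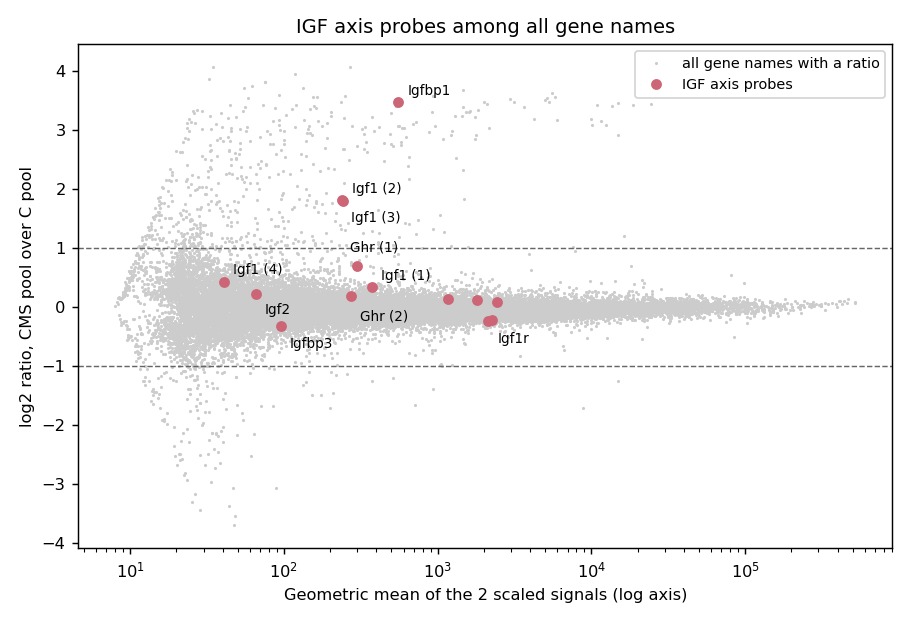
Log2 ratio of the CMS pool over the C pool against the geometric mean of both scaled signals (log axis) for all 27117 names with a ratio, in grey, and for the 14 IGF axis probes with a ratio, in red, with dashed lines at 2-fold. Igfbp1 and Igf1 probes 2 and 3 lie above the line, and numbers in brackets are probe numbers.

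The other genes of the pathway were taken from a list of 52: growth hormone and its regulators, insulin, further receptors and binding proteins, proteases, and the signalling proteins downstream. Of these, 44 had a ratio. None was more than 2-fold higher and none below 0.5-fold, by gene or by any of their 61 probes with a ratio. Of all names with a ratio, 1.96% were higher and 0.564% lower, and of all probes 1.82% and 0.581%. At such shares a list of this size can hold none, so the count does not set the pathway apart. Their median log2 ratio was -0.04, close to that of all names.

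The insulin genes Ins1 and Ins2 had log2 ratios of -0.40 ± 0.39 and -0.15 ± 0.21, so neither clearly exceeded its error. The Ins1 probe was dim, with signals of 32.9 in C and 25.0 in CMS. Of the receptors, Igf2r, which clears IGF-II, had a log2 ratio of -0.15, and Insr, the insulin receptor, -0.09. Of the binding proteins, Igfbp6 was at 0.11 ± 0.20 and Igfbp7, the highest of the list, at 0.31 ± 0.24. The proteases Pappa and Pappa2 were at -0.40 ± 0.24 and -0.19 ± 0.21. Igfbp7 and Pappa each rest on 1 dim probe, with signals of 54.4 and 77.8 in C and 67.4 and 59.0 in CMS. The 16 adaptors and kinases had a median of -0.02, with Mtor the lowest at -0.26, Irs1 and Irs2 both at -0.23, and Akt1 at -0.06. A second, dimmer Irs1 probe went the other way, at 0.25 ± 0.25, and the other Insr probes were at 0.18 and -0.08. Foxo1 and Foxo3, transcription factors that AKT holds out of the nucleus, were at -0.02 and -0.17.

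None of the 8 genes that carry, answer or damp the growth hormone signal passed 2-fold, and their median log2 ratio was -0.04. At the share of all names past 2-fold, a list this short would mostly hold none. Jak2, the kinase bound to the receptor, was at -0.07 and the transcription factor Stat5b at 0.10. Socs2 and Cish, both induced by STAT5, were at -0.02 and 0.04. Socs3, an inhibitor of cytokine signalling, had signals of 378 in C and 267 in CMS, and its log2 ratio of -0.50 was the lowest of the list. Growth hormone itself (Gh) was not well above background on either array, nor were Prl, Ghrhr, Ghsr, Stc1, Stc2, Igf2bp1 and Igf2bp3. Among the 12 pathway genes with several probes well above background in both pools, the widest spread was that of the prolactin receptor Prlr, a relative of Ghr. Its log2 ratios were 0.05 ± 0.22 and 0.68 ± 0.34, the second from a dim probe with signals of 30.8 in C and 49.2 in CMS.

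Hepatocyte markers were higher in the CMS pool, as were Igfbp1 and 2 of the Igf1 probes. Of 20 markers, 19 were more than 2-fold higher and all 20 were well above background in both pools. The median log2 ratio was 3.05, with a range from 0.74 (Tat) to 3.57 (Pck1), which holds Igfbp1 at 3.46. Their summed signal was 11285 in C and 99539 in CMS. Alb, the gene of serum albumin, went from 1509 to 17486. The study's network around Hnf4a lists 10 of the 20. Of the other 10, 9 were more than 2-fold higher, with a median of 2.98. The study took its genes by a 2-fold rule on these same arrays, so neither set is independent of its selection. Hnf4a, the liver transcription factor on which the study centres, had a log2 ratio of 3.55. The part of hepatocyte RNA in the ratios of Igfbp1, Igf1 and Ghr was not tested.

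Igf2 and Igfbp2 lay within 2-fold, and so did all but 1 of the markers of the cells that make them in the brain. The 12 markers of leptomeninges and fibroblasts had a median log2 ratio of -0.04 and a range from -0.27 (Slc47a1) to 0.52 (Col1a1), and their summed signal was 12850 in C and 12691 in CMS. The 10 choroid plexus markers had a median of 0.06, with a summed signal of 14153 in C and 18524 in CMS. Only Ttr, which the liver also makes and which is in the hepatocyte list as well, passed 2-fold, at 3.38. Without Ttr, the 21 genes of both lists summed to 26550 in C and 26504 in CMS. Of the choroid plexus part, Enpp2 alone gave 12636 in C and 12746.5 in CMS. The sums thus say little about the other choroid plexus markers, which were dimmer. Apart from Ttr, their log2 ratios ran from -0.56 (Sostdc1) to 0.34 (Otx2, not well above background in C). Whether the amount of choroid plexus differed between the pools was not tested.

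Markers of the cells of the cortex and its vessels had medians near 0. The markers of neurons, all 8 well above background in both pools, lay between -0.18 (Gad1) and 0.20 (Slc17a7). The medians were -0.03 for astrocytes, -0.15 for oligodendrocytes, 0.06 for microglia, -0.02 for brain endothelium and 0.01 for mural cells. The 3 erythroid markers with a ratio lay between 0.41 (Hba-a1) and 0.62 (Slc4a1). Gapdh had a log2 ratio of 0.04.

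**Figure D4:**
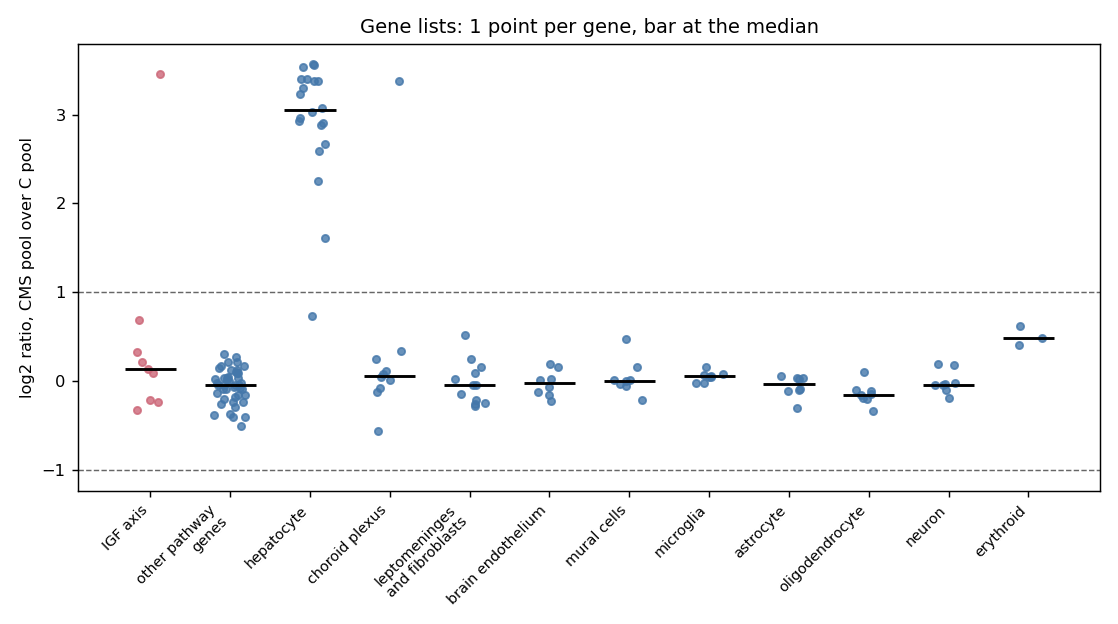
Log2 ratio of the CMS pool over the C pool for each gene with a ratio in the IGF axis (red), the other pathway genes and the lists of cell type markers (blue), with a bar at each median and dashed lines at 2-fold. Igfbp1 lies at the level of the hepatocyte markers, and the point at 3.38 among the choroid plexus markers is Ttr.

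**Figure D5:**
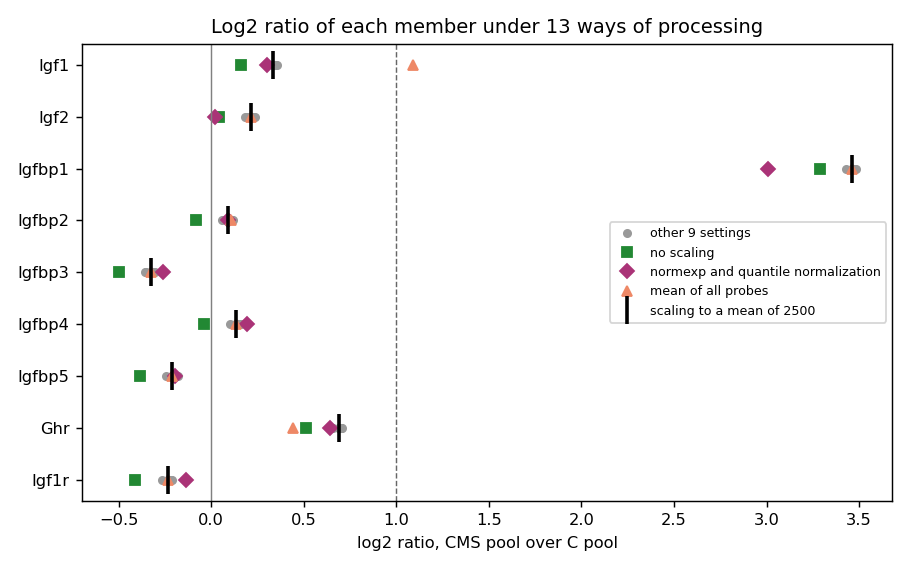
Log2 ratio of each IGF axis gene with a ratio under 13 ways of processing, where the black mark is scaling to a mean of 2500 and the dashed line is 2-fold. Igfbp1 stays between 3.01 and 3.48, and the mean of all probes moves Igf1 from 0.33 to 1.09.

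The sign of the log2 ratio was the same in all 13 settings for Igf1, Igf2, Igfbp1, Igfbp3, Igfbp5, Ghr and Igf1r, while Igfbp2 and Igfbp4 fell below 0 when the arrays were not scaled. Single probes 2 and 3 of Igf1 lay between 1.44 and 1.82 or 1.83 under all 9 settings that act on probes, and probes 1 and 4 between 0.14 and 0.45.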

How the data were processed

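PFC RNA of each group was hybridized as 1 pool to 1 array of 59305 spots and 55681 probes without controls, and both arrays were in 1 scan. Per the file headers and methods, the authors used Agilent Feature Extraction 10.10.1.1 and deposited background-subtracted, spatially detrended intensities on a linear scale, not scaled between arrays, and a table of the same intensities times 1 factor per array. Of the spots, 65.2% (C) and 65.9% (CMS) were well above background, and none was saturated.

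Outlier spots (130 in C, 133 in CMS) were left out, spots of 1 probe were averaged, and signals were multiplied by 1 factor per array to give a mean of 2500. A probe counted as well above background with a share of 0.5 or more of such spots. A probe dim on 1 array took there the lowest signal well above background, unless its own was higher, and a probe dim on both had no ratio. RefSeq accessions without versions were named through the GRCm38.p6 gene table, which named 30740 spots. The array was designed on another build, so no coordinates are given except those of the promoter windows.

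Named genes were the IGF axis genes, pathway genes past 2-fold or with differing probes, up to 4 genes of each marker list, Gapdh and Hnf4a. Socs3, Adcy1 and further pathway genes were added. Results for 2 genes are not reported here. The genes and lists were chosen with earlier results of these data known. The alternatives were other scalings, quantile normalization, normexp on median intensities (offset 50), the deposited table, other rules for dim probes, outlier spots kept and the mean of all probes. The calling of genes was tested on simulated data, with changes planted only in genes well above background on both arrays. The planted changes were well past 2-fold, in genes of higher signal, and the noise was the same at all signals. Changes near 2-fold, changes in genes of low signal and the rule for probes dim on a single array were not tested by the simulation. The number of arrays limits the precision. Python 3.11.15, numpy 2.4.6, pandas 2.3.3, R 4.3.3 and limma 3.58.1 were used.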

Additional observations from a re-analysis of the deposited data

How the results depend on the processing

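No paired analysis was possible because each group has 1 array, and for the same reason no replicate could be left out. The limits for a change were 0.13 for the log2 ratio of a single gene, which is the SD between spots of 1 probe, and 1.5 times for a count. The medians of marker lists were held to a tighter limit, so a shift smaller than 0.13 is also listed for them. The causes were not tested unless the setting itself shows them.

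Of the 10 IGF axis genes, 1 was more than 2-fold higher, and 2 were with the mean of all probes (Igf1 at 1.09) and with no filter (Igfals at 1.86, from signals not well above background). No pathway gene was more than 2-fold higher, but 1 was with no lowest signal for dim probes and 1 with no filter, which also made 3 lower. All genes higher numbered 532, and 265 under normexp, 1493 with no filter and 294 when both arrays had to be well above background. All genes lower numbered 153, and 250 with no scaling, 38 under normexp, 315 with no lowest signal for dim probes, 1069 with no filter and 44 when both arrays had to be well above background. The hepatocyte median, 3.05, was 2.995 for the mean of all probes, 2.74 for normexp and 2.88 without scaling. The choroid plexus and leptomeninges median, 0.02, was -0.15 with no scaling.

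Leaving out the scaling lowered the median of all genes by construction, by a log2 shift of -0.17, and all IGF axis ratios with it. Igfbp1 was then 3.29, and 3.01 under normexp. Of the values of single IGF axis genes, 95 stayed within the limit and 13 moved. Among the IGF axis values, dim signals limit Igfals, Igf2 and Igf1 probe 4.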

Other observations

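The genes named here were chosen after their values were seen. Pmch, a neighbour of Igf1 on chromosome 10, had a log2 ratio of -0.03. Ccdc152, which neighbours Ghr on chromosome 15, was dim in C, and CMS was at least 1.67-fold higher. Both neighbours of Igfals on chromosome 17 lay near 0, with Fahd1 at 0.07 and Nubp2 at 0.03. Next to Igf2 on chromosome 7, Ins2 was at -0.15 and Mrpl23 at 0.03.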
